A study of Caenorhabditis elegans with 4 samples.

Results

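The 849 ELT-3 peaks called on chromosome III of Caenorhabditis elegans are described here, out of 5338 peaks called on the 6 nuclear chromosomes. They were taken as every line of the deposited peak list whose chromosome is III, a choice that uses no measured strength or width. ELT-3::EGFP, tagged with TY1, EGFP and FLAG, was precipitated with goat anti-GFP serum from fed L1 hermaphrodites of strain OP75, kept at 20 °C, whose genotype is unc-119 (ed3) III with the integrated transgene wgIs75. Of the 4 libraries, 2 were ChIP DNA and 2 were input DNA of the same strain, with 1 of each kind in each of 2 replicates, so that every library carried the same mutation and the same transgene. The transgene was introduced by bombardment, adds copies of elt-3 and unc-119 to those of the genome, and is 1 integrated line. No untagged strain is among the libraries.

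ELT-3 is a GATA-type transcription factor of the hypodermis, the epithelium that covers the worm and secretes its collagen cuticle. Factors of this family bind DNA through zinc fingers that recognise the letters GATA, and ELT-1, another member, acts upstream of ELT-3 in the embryo. Chromosome III is a holocentric autosome, which means that the spindle attaches along its whole length rather than at a single centromere. In this worm the central parts of autosomes are known for dense genes and little recombination, and the arms for more repeats and more recombination. The unc-119 gene, whose mutation and rescue mark the strain, lies on III.

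For every peak the authors gave its borders in bp and a q-value, that is, a p-value for ChIP against input corrected for the number of places tested. A smaller q-value is called stronger below. Positions are in the WormBase WS180 build. The list is combined over the replicates and holds no value per library, so neither the depth nor the spread between replicates is known, and no difference below was tested. Intervals at 95% cover counting error only (exact Poisson for densities, exact Clopper-Pearson for shares, order statistics for medians). They treat neighbouring peaks as independent, which makes them too narrow. The other 5 chromosomes show how far such values vary within the list, and where III lies outside their range this is a description of 6 chromosomes. Peaks were not assigned to genes, since the gene table at hand is of another build.

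ELT-3 peaks were frequent along all of chromosome III and reached well into both arms. The chromosome held 61.6 peaks per Mb (57.6 to 65.9) over the 13.8 Mb up to its last peak end, more than every other chromosome except I with 63.1. In the left arm, the first 4.59 Mb, lay 241 peaks or 52.5 per Mb (46.1 to 59.6). The centre of equal length held 324 peaks or 70.6 per Mb (63.1 to 78.7), and the right arm held 284 peaks or 61.9 per Mb (54.9 to 69.5). The centre was thus denser than the left arm without overlap of the intervals, while the interval of the right arm overlapped both.

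With all peaks counted, the contrast between centre and arms was the weakest of the 5 autosomes, an order that did not hold for the stronger peaks. In the stronger 50% of the list the central share of III was 42.9% and ranked 4 of 6 from the highest, and in the strongest 25% it was 44.4% and ranked 3. Its ratio of centre to left arm, 1.34 and ranked 5 with all peaks, ranked 2 in both subsets, with 1.77 and 1.96. Over all peaks, density in the centre of III was 1.23 times that of its arms, against 1.44 on IV and 1.84 on V at the ends of the autosomal range, and 1.15 on X. The centre itself was not sparse, since 3 centres were less dense, those of IV with 69.7 peaks per Mb, V with 60.0 and X with 51.7. It was the arms that ranked highest. The 2 arms of III together held 57.2 peaks per Mb (52.4 to 62.3), followed by those of I with 52.2 (47.8 to 56.9), whose interval overlapped, and down to 32.6 on V (29.7 to 35.7). Taken singly, the right arm of III was the densest of the 12 arms, just above the right arm of II with 60.9, a difference well inside the counting error.

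**Figure D1:**
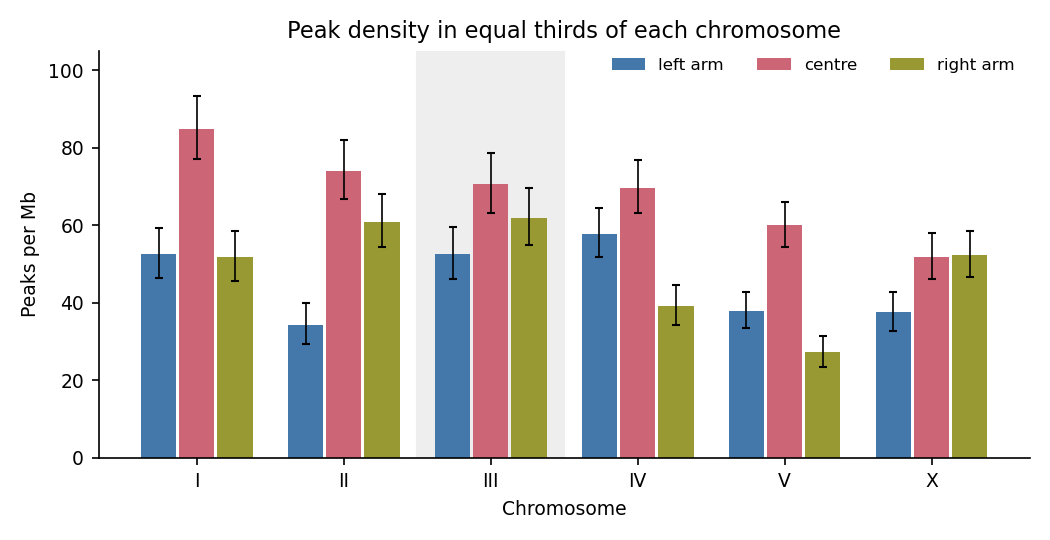
Peaks per Mb in the left arm, centre and right arm (equal parts of the span up to the last peak end) of each chromosome, with exact Poisson 95% intervals as error bars and chromosome III shaded. The 3 bars of III run from 52.5 to 70.6 per Mb, a flatter profile than on the other autosomes with all peaks counted but not in the stronger 50% or the strongest 25% of the list, and its right arm is the highest of all arms.

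Counted over all peaks, the 2 arms of III were more alike than those of most chromosomes. The right arm held 1.18 times as many peaks as the left, with an interval of 0.989 to 1.40 that includes equal counts. On chromosome I the ratio was 0.985, while IV, V, X and II showed 0.677, 0.720, 1.39 and 1.77. In 10 equal parts, III held 54, 60, 89, 102, 96, 104, 87, 100, 75 and 82 peaks from left to right. The counts formed a plateau from the third to the eighth part, at 70.0 peaks per Mb, with 49.2 per Mb in the outer 4 parts. The plateau was wider than the centre as defined above and ran into both arms. On X the same parts held 51.3 and 41.0 peaks per Mb, which lay closer together than those of III. Between the fullest and the emptiest of the 10 parts the ratio was 1.93 on III, the lowest of the 6 chromosomes, which otherwise ran from 2.06 on I to 4.97 on V.

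**Figure D2:**
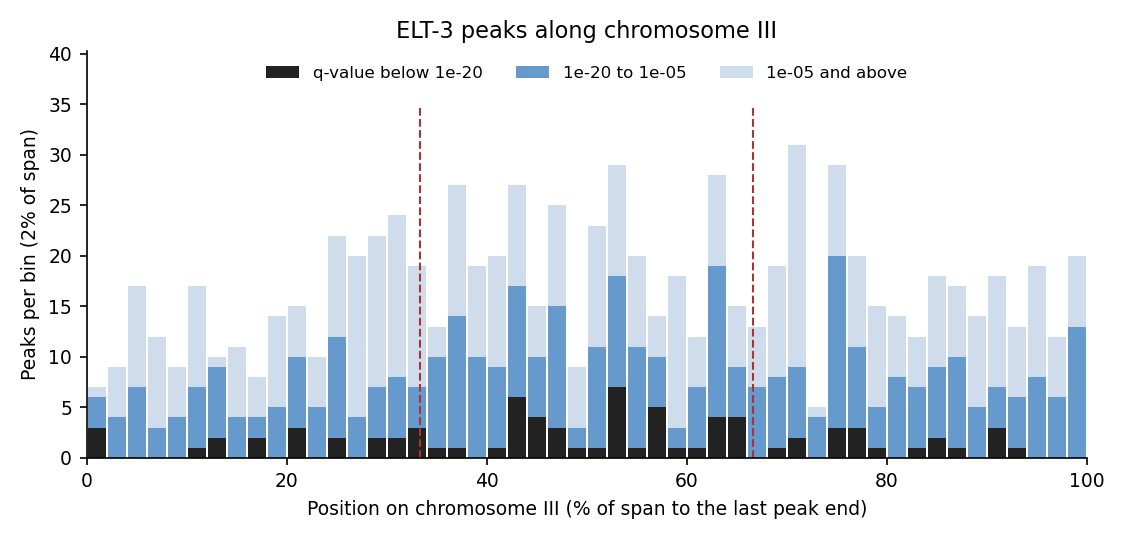
Peaks per bin along chromosome III, in 50 bins of 2% of the span, stacked by q-value class, with dashed lines at the borders of the centre. The fullest bin holds 31 peaks and lies just right of the centre, and the next bin holds 5. Of the 79 peaks below 1e-20 (black), 42 lie between the dashed lines and 37 outside them.

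Windows of fixed length also showed rather even counts, though in 1 Mb windows X was as even as III. The variance of the 1 Mb counts was 3.13 times their mean on III, 3.07 times on X and up to 9.83 times on V. The 13 complete 1 Mb windows of III held between 40 and 90 peaks, with a median of 66. The fullest ran from 5 to 6 Mb in the centre (90 peaks, 72.4 to 111), followed by 7 to 8 Mb with 72 and 8 to 9 Mb with 71. The emptiest 2 were those from 1 to 2 Mb with 40 peaks (28.6 to 54.5) and from 0 to 1 Mb with 43, both at the left end. The right end had no such low stretch, with 62 peaks from 12 to 13 Mb. Elsewhere the emptiest 1 Mb window held 41 peaks on I and 25 or fewer on II, IV, V and X.

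Crowded windows were not always strong ones. From 3 to 4 Mb lay 66 peaks, of which 37.9% had a q-value below 1e-05 and whose median q-value was 0.000139. From 10 to 11 Mb lay the same number, of which 57.6% were below 1e-05, with a median of 8.46e-07. The window from 11 to 12 Mb held 49 peaks, yet 57.1% of them were below 1e-05. The window from 9 to 10 Mb, which straddles the border of the centre and the right arm, contains the strongest peak of III although only 38.8% of its 67 peaks passed 1e-05.

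Nearly every 100 kb of chromosome III held a peak. Of its 137 complete 100 kb windows, 2 were empty (1.46%, 0.177% to 5.17%), at 200001 to 300000 and at 1700001 to 1800000, both in the left arm. Empty windows made up 2% on I and between 5.17% and 12.0% on the remaining chromosomes. The median window of III held 6 peaks. The fullest, at 10200001 to 10300000 in the right arm, held 18 peaks that covered 8.75 kb, followed by 17 at 5800001 to 5900000 in the centre and 16 at 3800001 to 3900000 in the left arm. Each of the 3 parts of the chromosome therefore had 1 of the 3 fullest windows. Of these, the window of the left arm was made mostly of weak peaks, with 4 of 16 below 1e-05 against 13 of 18 in that of the right arm and 9 of 17 in that of the centre. The variance of the counts was 1.84 times their mean on III and 2.09 to 2.89 times on the other chromosomes. This ratio also depends on the mean count, which was higher on I (6.31) and lower on the rest than the 6.15 of III.

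The longest stretches without a peak were short on III. The largest gap between neighbouring peak edges was 194.7 kb, from 154567 to 349273 near the left end, and the largest gaps of the other chromosomes ran from 278828 bp on I to 467449 bp on V. Next came 171.4 kb at 1682648 to 1854017 in the left arm, 125.6 kb at 10007281 to 10132844 and 121.5 kb at 12711511 to 12833054 in the right arm, and 115.7 kb at 5981799 to 6097524 in the centre. These gaps adjoined full places as well as thin ones. The gap that ends at 10132844 shortly precedes the fullest 100 kb window described above, and the gap in the centre begins inside the fullest 1 Mb window. Over 100 kb long were 9 gaps on III, with 4 in the left arm, 2 in the centre and 3 in the right arm, against 7 on I and 15 to 34 elsewhere. The number of long gaps depends on the length of a chromosome, and III has the shortest span of the 6.

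Typical spacing on III was close to that on I, II and IV. The median distance between neighbouring midpoints was 7593 bp, with the central 50% of the distances between 2259 and 20632 bp. Medians were 7062 to 7481 bp on I, II and IV, 8733 bp on V and 9728 bp on X. Neighbours were closer in the centre of III, with a median of 6752 bp, than in the right arm with 7338 bp and the left arm with 8559 bp. A neighbour with its midpoint at most 2000 bp away was found for 335 of the 849 peaks (39.5%, 36.2% to 42.8%), within the counting error of I (39.3%), IV (39.1%) and II (38.5%) and above V (31.4%) and X (31.5%). By part of III the share was 34.9% in the left arm, 40.4% in the centre and 42.3% in the right arm. The right arm was thus no more dispersed than the centre at short range, although it held fewer peaks.

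**Figure D3:**
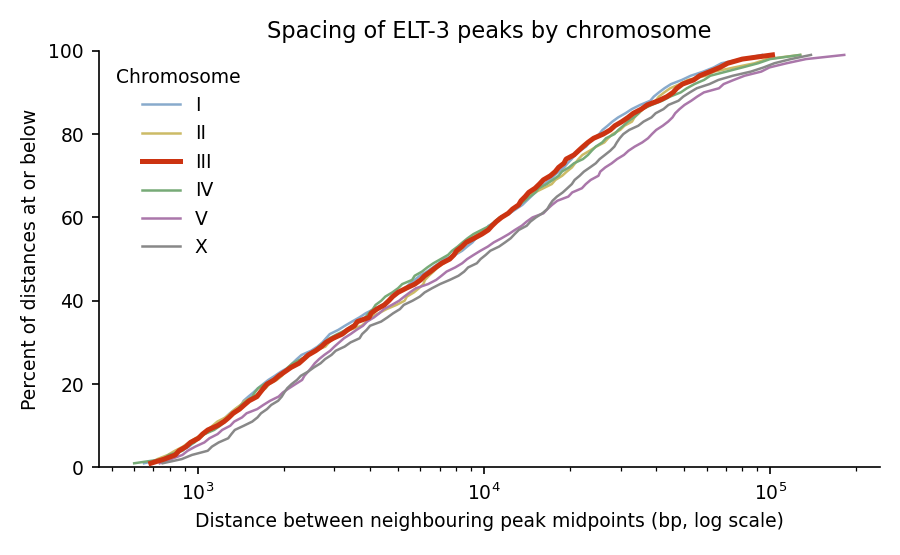
Cumulative percent of distances between neighbouring peak midpoints for each chromosome, on a log scale in bp. The curve of III (bold) runs with those of I, II and IV up to about 10000 bp, and left of V and X.

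Close neighbours formed short runs. Linking midpoints within 2000 bp of the next left 514 peaks alone and gave 100 pairs, 31 runs of 3 peaks, 8 of 4 and 2 of 5. Runs of 6 or more were not found on III, nor on II and V, where the largest also had 5 peaks. The largest had 6 peaks on I, 7 on X and 8 on IV. The 41 runs of at least 3 peaks lay in the left arm (10), the centre (18) and the right arm (13).

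In the longer of the 2 runs of 5, at 10235030 to 10241704, the peaks were of unequal strength. Its second peak (10236167 to 10237537, 1371 bp) had a q-value of 5.37e-33 and was the strongest of the 100 kb window that held most peaks. The last (10240938 to 10241704) had 2.24e-21, and the other 3 lay between 1.25e-16 and 6.78e-06. In the second run, at 2871732 to 2876536 in the left arm, the outer 2 peaks were the strong ones, with 1.49e-21 and 7.59e-30, and the 3 between them had 6.56e-09 to 2.61e-08. The first of the runs of 4, at 8982010 to 8987370 in the centre, held 2 of the 20 strongest peaks of III (q-values 4.83e-40 and 4.38e-55) with a peak of 6.27e-12 between them and one of 0.000892 at its left. Within the 3 runs the gaps between peaks measured 206 to 1277 bp, and how the caller joined or split such regions was not tested.

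The fullest 20 kb of chromosome III held 9 peaks, at 12003067 to 12020430 in the right arm. Chromosome V also had at most 9 in 20 kb, I and X had 10, II had 11 and IV had 14. The 9 peaks covered 3.64 kb of 17.4 kb. Only the last (12019788 to 12020430, 643 bp) was below 1e-20, with 2.99e-22, and the first (12003067 to 12003649) followed with 1.74e-12. The other 7 ran from 2.06e-10 to 0.00788. It was a crowded place of mostly moderate peaks rather than one of the strongest places.

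The strongest peak of III was in the centre, and the next 2 were in the left arm, among them the first peak of the chromosome. The strongest, at 9050803 to 9055007 (4205 bp, q-value 1.75e-88), ranked 20 in the whole list and lay at 65.7% of the span, just inside the centre. The first peak, at 14666 to 15708 (1043 bp), had 6.83e-75 and ranked 31. At 4494430 to 4496599 (2170 bp), just left of the centre, the q-value was 5.90e-67. On each of the other 5 chromosomes the strongest peak had a q-value between 1.91e-228 and 2.42e-126, so III lacked peaks of that strength.

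The next 7 peaks were close to each other in strength, from 4.38e-55 to 1.00e-51. At 8986678 to 8987370 (693 bp) the q-value was 4.38e-55, and at 12849018 to 12849924 (907 bp), the strongest place of the right arm, it was 9.36e-55. The narrow peak at 154156 to 154566 (411 bp) had 1.19e-53 and bordered the largest gap of the chromosome on its right, with 66573 bp free on its left. The remaining 4 were in the centre, at 7374512 to 7377107 (2596 bp, q-value 3.58e-53), 8035945 to 8036799 (855 bp, 1.46e-52), 8443315 to 8447309 (3995 bp, 2.26e-52) and 7298976 to 7301214 (2239 bp, 1.00e-51). Of the 10 strongest peaks 6 were thus in the centre, 3 in the left arm and 1 in the right arm. The order among peaks this close in strength was not tested.

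**Figure D4:**
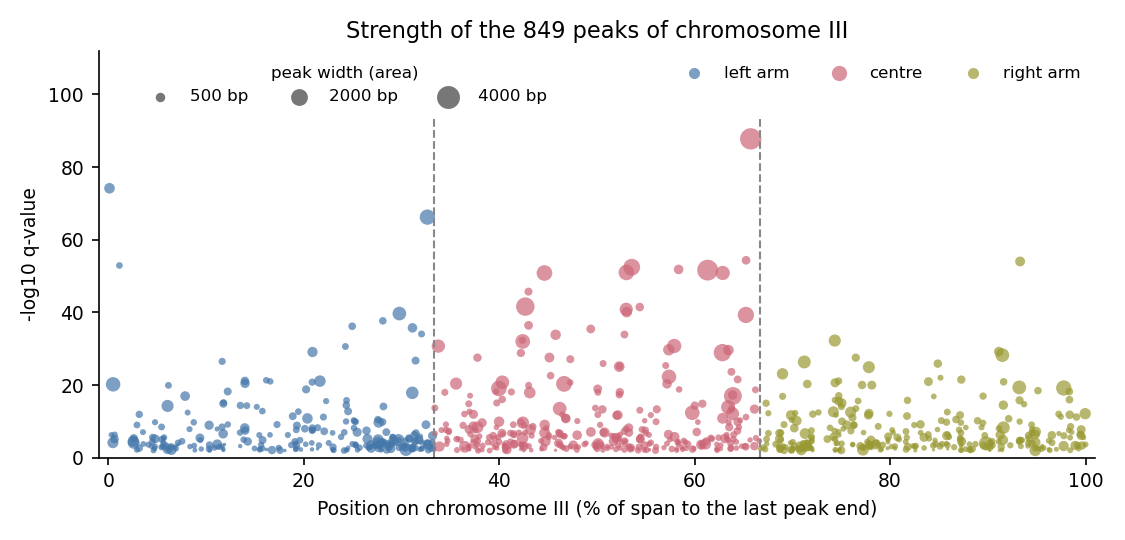
Negative log10 of the q-value of each of the 849 peaks against its position on chromosome III, coloured by part, with point area proportional to width (peaks under 100 bp share the smallest size). The centre holds most of the large and high points, while the 3 highest points of the left arm lie at its 2 ends.

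The right arm was dense but held few of the very strongest peaks. Its strongest peak was followed only by one of 5.37e-33 (10236167 to 10237537, rank 29 on III) and one of 5.92e-30 (12549236 to 12550085, rank 36). Among the 20 strongest peaks of III, 14 lay in the centre, 5 in the left arm and 1 in the right arm. Among the 100 strongest, 55 lay in the centre, 23 in the left arm and 22 in the right arm. With the 200 strongest counted, the right arm held more (66) than the left arm (46). As weaker peaks were added, the central share fell from 62% of the strongest 50 (47.2% to 75.3%) to 44% of the strongest 200 and 38.2% of all (34.9% to 41.5%). Strong peaks in the centre were not particular to III. Its centre held 53.2% of its peaks below 1e-20, within the 41.6% on X to 60.8% on I elsewhere. Of the 10 strongest peaks of each chromosome, the centre held 6 on III, 9 on I, 8 on II, 7 on V, 4 on IV and 2 on X.

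A q-value below 1e-20 was held by 79 of the 849 peaks of III, or 9.31%, against 9.25% of the whole list, a share close to that background. At 1e-10 and 1e-30 III was the lowest of the 6 chromosomes, each time within its counting error of the next. It had 23.4% of its peaks below 1e-10 (23.7% to 27.8% elsewhere) and 3.89% below 1e-30 (3.96% to 5.28% elsewhere). At 1e-05 it ranked 5 with 50.1% (48.3% to 53.8% elsewhere), and at 1e-50 it ranked 3 with 1.41% (0.812% to 1.58% elsewhere). III, with 15.9% of all peaks, held 13 of the 100 strongest, 81 of the 500 strongest, 145 of the 1000 strongest and 301 of the 2000 strongest peaks of the list. Within III peaks below 1e-20 made up 13.0% of the centre (42 peaks, 9.50% to 17.1%), 7.88% of the left arm (19 peaks, 4.81% to 12.0%) and 6.34% of the right arm (18 peaks, 3.80% to 9.83%). The interval of the centre overlapped those of both arms. Per unit of length the centre held 9.15 such peaks per Mb and the arms 4.14 and 3.92. Of the 10 equal parts, the fifth and the sixth held 15 each, the first 2 held 3 and 5, and the last 2 held 4 each.

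Peaks of the centre were also stronger at the median. The median negative log10 q-value was 5.62 in the centre (5.02 to 6.33), 4.91 in the right arm (4.29 to 5.62) and 4.30 in the left arm (3.85 to 4.93). The intervals of centre and left arm did not overlap, and the left arm of III had the lowest median of the 18 chromosome parts. The centre exceeded both arms together by 1.04 on this scale. On the other chromosomes the same difference ran from -0.27 on II to 0.49 on IV, so III lay outside their range, and no test of this difference was made. The median q-value of the whole chromosome was 9.98e-06, between the 1.63e-05 of V and the 4.80e-06 of X.

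The strongest 100 kb window by the number of peaks below 1e-20 was 5800001 to 5900000, with 4 such peaks among its 17 and a best q-value of 2.46e-42. The windows 10200001 to 10300000 and 7200001 to 7300000 followed with 3 each. The neighbouring window 7300001 to 7400000 and that at 7800001 to 7900000 also had 3 each, the latter among only 6 peaks. In all, 84 of the 137 windows had no peak below 1e-20 and 33 had 1. Strong peaks were therefore spread over many places, with the stretch from 7.2 to 7.4 Mb as the only pair of neighbouring windows with 3 each.

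Strong peaks of III often had a smaller gap to the nearest peak than weak ones. The median gap was 801 bp for the 79 peaks below 1e-20, 1958.5 bp for the 346 peaks between 1e-20 and 1e-05, and 3152.5 bp for the 424 weaker ones. A gap under 500 bp was found beside 36.7%, 17.3% and 12.3% of them. At the other end, 9 of the 79 strong peaks had no other peak edge within 10 kb. Among these were the narrow peak at 154156, the first peak of the chromosome and the broad peak at 8443315. Wider peaks reach closer to their neighbours by their width alone, and its part in these gaps was not tested.

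Most broad regions of III were in its centre. The median width was 412 bp (394 to 429), with the central 50% between 316 and 599 bp, and medians of the other autosomes were 401 to 426 bp. It was 413 bp in the left arm and 409.5 bp in both the centre and the right arm, so that typical peaks were equally wide everywhere. Of the 13 peaks over 2000 bp, however, 11 lay in the centre (84.6%), from 5501501 to 9055007, against 34.8% of such peaks on X and 72.2% on I at the ends of the range of the other chromosomes. Peaks over 2000 bp made up 1.53% of III, the lowest share of the 6 chromosomes, next to 1.54% on IV and up to 3.33% on V. With 13 peaks these shares are imprecise.

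The 3 widest peaks were those at 9050803 (4205 bp), at 8443315 (3995 bp) and at 5874157 to 5877299 (3143 bp, q-value 2.46e-42). The widest peak of every other chromosome was wider, from 4483 bp on IV to 8584 bp on I. The 13 broad peaks were all among the 103 strongest of III, and 10 of them were below 1e-20. Another peak lay within 500 bp of 8 of the 13, for example on both sides of the peak at 8982965 to 8985399, with gaps of 400 and 437 bp. The border between 1 broad region and several adjacent ones is therefore narrow in these places. In the right arm the only broad peak was at 13463620 to 13465791 (2172 bp, q-value 6.24e-20), near the end of the chromosome.

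Width fell step by step with strength. The median was 2022 bp for the 12 peaks below 1e-50 (855 to 2596), 717 bp for the 67 between 1e-50 and 1e-20, and 515 bp for the 120 between 1e-20 and 1e-10. It was 429.5 bp, 365.5 bp and 294.5 bp in the 3 weaker classes, the last of which begins at 0.001. Narrow but strong peaks existed, the clearest being the 411 bp peak at 154156 with a q-value of 1.19e-53. Across the 849 peaks, width and the negative log10 q-value had a Spearman coefficient of 0.55 and a Pearson coefficient of 0.589, a description over peaks that share their libraries and in which a wider region holds more reads.

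**Figure D5:**
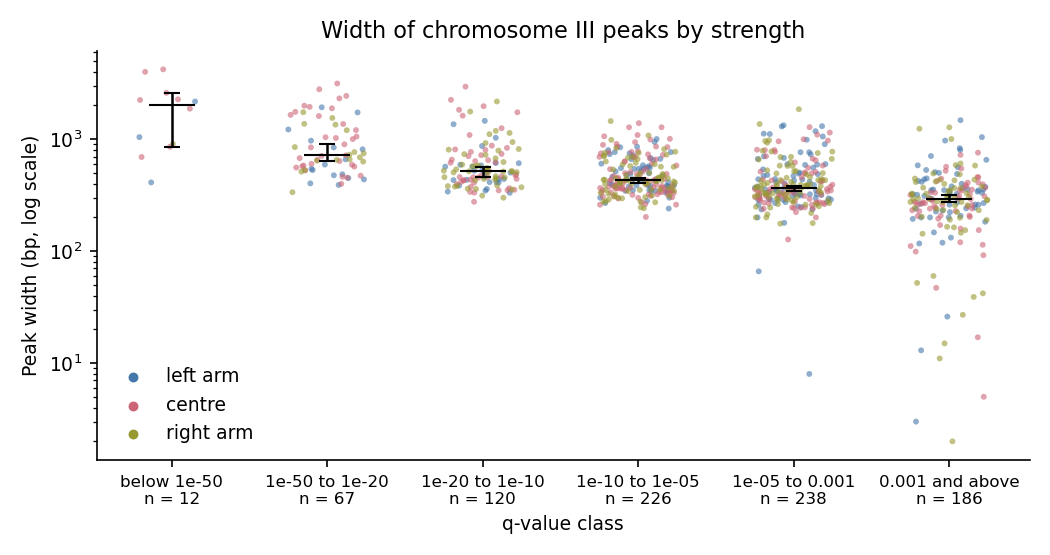
Width of each chromosome III peak (log scale, in bp) by q-value class, coloured by part, with the median and its 95% interval in black. Medians fall from 2022 bp below 1e-50 to 294.5 bp at 0.001 and above, where nearly all peaks narrower than 100 bp lie.

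Very narrow peaks were few and weak. Below 100 bp were 18 peaks of III (2.12%), within the 0.719% on X to 4.74% on IV of the other chromosomes, and 13 of them were under 50 bp. The narrowest were 2 bp at 12422128 to 12422129 (q-value 0.00926), 3 bp at 3857199 to 3857201 (0.00650) and 5 bp at 5807019 to 5807023 (0.00450). The strongest of the 18 had a q-value of 0.000207. The shortest of these entries are shorter than a GATA site, so their borders do not give the extent of binding. They lay in the right arm (8), the left arm (5) and the centre (5).

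The 2 ends of chromosome III differed. In its first 200 kb lay 7 peaks, among them the first peak at 14666, the peak at 154156 and another at 64798 to 66723 (1926 bp, q-value 5.96e-21). The last 200 kb held 13 peaks, the strongest with 7.14e-13, and ended with a peak of 329 bp at 13771115 to 13771443 (q-value 0.000209). The left end thus held fewer peaks with strong ones among them, and the right end more peaks but weaker ones. Counts this small are imprecise. Every other chromosome also had more peaks in its last 200 kb than in its first, from 7 and 9 on IV to 1 and 16 on X. No peak in the first 200 kb of any other chromosome was below 1e-20, and the strongest there had 2.55e-18, on II. In the last 200 kb, IV, I and X had peaks of 1.64e-41, 2.64e-32 and 5.16e-31. The ends were singled out after their values had been seen.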

How the data were processed

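ChIP DNA and input DNA of strain OP75 at fed L1 were sequenced by the authors in 2 replicates of each. The authors deposited 1 combined list of peaks, which gives start and end in bp and a q-value per peak. PeakSeq is named as the caller on every line and WormBase WS180 as the build, per the file headers and lines. Pooling of replicates, aligner, filters and versions are not given in the sources used here, and the depth is unknown. The submitters' protocol text speaks of embryos at lysis, although the stage label is fed L1.

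From the list, width was taken as end minus start plus 1 and position as the midpoint. The span of a chromosome ran from 1 to its last peak end and was cut into 3 equal parts. Windows of 1 Mb and 100 kb started at position 1. Python 3.11.15, NumPy, pandas and SciPy 1.17.1 were used, and the measures were checked on a made-up list with known answers. No test was run, because 1 list gives no spread between samples. Places were named by a rule (the 10 strongest peaks, the 3 strongest of each part, the 3 widest and narrowest, the first and last, extreme windows, gaps and runs). Others named, with the ends, the broad peaks and the gaps to the nearest peak, were chosen after their values were seen. The chromosome, the rule and these measures were chosen with earlier results of these data known. Gene neighbours, the GATA motif and peak sequences were not analysed here, since no genome of the WS180 build was used. Alternatives were subsets by q-value, merging within 500 bp, other spans, windows and distances.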

Additional observations from a re-analysis of the deposited data

How the results depend on the processing

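No paired analysis was possible because replicates were combined before deposit, which also meant that none could be left out. The central share of 38.2% became 42.9% in the stronger 50% of the list and 44.4% in the strongest 25%, and it was 58.5% in the middle 50% and 23.6% in the middle 20% of the span. The ratio of centre to left arm, 1.34, rose to 1.77 and 1.96 in the 2 subsets and from rank 5 to rank 2. That of right to left arm, 1.18, rose to 1.36 and 1.44 and from rank 3 to rank 2. So the profile of III is flattest when weak peaks are counted, and its central share ranked 4 of 6 and 3 of 6 in the 2 subsets instead of 5. Merging within 500 bp left 771 of the 849 peaks. The share of peaks with a neighbour within 2000 bp, 39.5%, was 25.8% after merging and 27.3% in the stronger 50%, and it was 13.1% within 1000 bp and 65.1% within 5000 bp. III, the highest of 6 in this share by a margin inside the counting error, ranked 2 or 3 under these 4 settings. Empty windows, 1.46% at 100 kb, were 10.9% at 50 kb, where I had fewer, and 0% at 200 kb. Peaks below 1e-10 made up 23.4% and below 1e-30 3.89%, both the lowest of 6, against 9.31% below 1e-20, which ranked 3. Median width was 505 bp in the stronger 50%. The ratios of centre to left arm and of right to left arm kept their direction under every setting applied to them. For right to left arm, however, the interval included equal counts with all peaks (0.989 to 1.40) and after merging (0.991 to 1.43). It also did so in the strongest 25% (0.973 to 2.16), but not in the stronger 50% (1.04 to 1.77). The Spearman coefficient of width and strength stayed positive, at 0.538 without the 10 strongest peaks. The other values are shares and median widths, which have no direction, so a reversal could not occur in them. Of the 28 settings, 12 moved values by less than their counting error, among them the ratio of 1.36. Lengths were taken from last peak ends, and the detection limit of the list is unknown.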
